A study of Bos taurus with 12 samples.

Results

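A set of 5 genes with links to platelets was followed in the peripheral white blood cells (PWBCs) of beef heifers: MEIS1 (ENSBTAG00000008448), P2RY1 (ENSBTAG00000001465), F2RL3 (ENSBTAG00000033278), CXCL5 (ENSBTAG00000009812) and RALB (ENSBTAG00000032021). They were picked by identifier and make up 5 of the 27607 genes in the count table, and all 5 were among the 13012 genes with enough reads to be tested. The question was whether they rise and fall together across heifers, as a varying amount of platelet RNA would make them do. All 5 come from the list of genes that the study called lower in subfertile heifers on these same libraries, so their difference between the groups is given as a description and is no independent evidence of its direction.

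Platelets are cell fragments shed by megakaryocytes in the bone marrow. They carry no nucleus but hold RNA from the parent cell, and a preparation of white cells from blood usually keeps some of them. They respond to agonists such as ADP and thrombin through receptors on their surface, which signal through calcium and the small GTPase Rap1 to the integrin made of ITGA2B and ITGB3, the receptor for fibrinogen. P2RY1 is an ADP receptor and F2RL3 (PAR4) a thrombin receptor of this system. MEIS1 is a homeobox transcription factor of blood stem cells and megakaryocytes, CXCL5 is a chemokine that attracts neutrophils, and RALB is a small GTPase of the Ras family with a part in vesicle secretion.

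The 12 heifers were Simmental-Angus crosses, with 1 library each. The 6 fertile heifers (labelled Pregnant) conceived at the first artificial insemination (AI), and the 6 subfertile heifers (labelled Open) conceived neither at AI nor in 60 days of natural service that followed. Both groups received the same 7-Day CO-Synch + CIDR synchronisation, with 100 µg GnRH, a 1.38 g progesterone insert for 7 days, 25 mg dinoprost and AI 54 h after removal of the insert with a further 100 µg GnRH, and blood was drawn 2 days before AI. The reproductive tract score was 4 in every heifer except the fertile LM1247 and the subfertile LM1246, with 5. The heifers were grouped after the outcome was known, so that any other difference between those that conceived and those that did not cannot be told apart from fertility.

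Libraries held 14010736 to 21278761 counts. Between 2 libraries of a group the chi-square per degree of freedom over genes was 22.5 or more in all 30 such pairs, and none of all 66 pairs of libraries held identical counts. Of the white cell markers, the T cell markers CD3E, CD2, CD4 and CD8A summed to 603 to 1271 CPM, the unit of counts scaled to a common library size used from here on, the B cell markers CD79A and PAX5 to 367 to 750 CPM and the neutrophil markers CXCR2 and S100A9 to 21.7 to 215 CPM. One library stood apart for the genes described here. The fertile library LM1330 had the highest level of all 5 genes and of all 10 platelet markers used below. It also had the lowest S100A9 (21.7 CPM, against 51.6 to 211 in the others), no read of CXCR2, the lowest of the monocyte markers VCAN and CD68, and the highest CCR3, a chemokine receptor of eosinophils and basophils (207 CPM, against 10.9 to 51.4). The part of these cells in the results was not tested, and its weight in the main results is given beside them.

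MEIS1 was among the genes with few reads, at 20 to 247 counts per library. Its level was 2.32, 2.67, 4.53, 5.03, 5.26 and 14.9 CPM in the fertile heifers and 1.42, 1.58, 2.24, 2.47, 3.94 and 4.29 CPM in the subfertile heifers. The groups overlapped, although all 6 subfertile values lay under the fertile median of 4.78 CPM and LM1330 was far above the other 11 libraries. Mean level was 5.79 ± 4.64 CPM in fertile and 2.66 ± 1.20 CPM in subfertile heifers (SD, n = 6 each).

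P2RY1, the ADP receptor, spanned a narrower range. Its values were 14.8, 16.1, 26.6, 28.4, 38.5 and 52.0 CPM in fertile and 11.3, 14.9, 17.6, 20.2, 22.3 and 28.0 CPM in subfertile heifers. All but 1 of the 6 subfertile values were under the fertile median of 27.5 CPM, and the lowest fertile values, in LM1244 and LM1286, were under those of 4 subfertile heifers. Means were 29.4 ± 14.1 CPM and 19.1 ± 5.86 CPM (SD, n = 6 each).

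F2RL3, the thrombin receptor, varied most among the 5. It had 1.58, 3.88, 5.73, 5.98, 8.56 and 17.2 CPM in fertile heifers. In subfertile heifers it had 0.140, 1.70, 3.29, 3.50, 4.77 and 6.02 CPM. The lowest value, in LM1246, rested on 3 reads, and its 95% Poisson interval of 0.0288 to 0.409 CPM, which covers counting error only, lay below every other library. All but 1 of the 6 subfertile values were inside the fertile range, and means were 7.15 ± 5.43 CPM and 3.23 ± 2.10 CPM (SD, n = 6 each).

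CXCL5, the chemokine, was at 2.53, 5.26, 8.12, 8.19, 8.21 and 30.2 CPM in fertile heifers. It was at 1.82, 3.17, 3.29, 3.39, 7.47 and 7.82 CPM in subfertile heifers. The subfertile heifers LM1265 and LM1283 reached nearly the level of 3 fertile ones, the other four sat lower, and LM1330 was again alone at the top. Means were 10.4 ± 9.93 CPM and 4.49 ± 2.51 CPM (SD, n = 6 each). In the cattle RefSeq gene table used for names, which is of another assembly, CXCL5 is followed directly by PPBP and PF4, the genes of the platelet chemokines. These neighbours were not analysed here.

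RALB, the small GTPase, had the most reads, 1102 to 3062 per library, and the smallest spread. Its values were 67.1, 68.4, 90.1, 102, 118 and 185 CPM in fertile and 57.3, 63.0, 70.4, 74.6, 78.7 and 84.1 CPM in subfertile heifers. All 6 subfertile values lay below the fertile median of 96.1 CPM, 2 of them below the whole fertile range. Means were 105 ± 43.8 CPM and 71.4 ± 9.96 CPM (SD, n = 6 each).

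**Figure D1:**
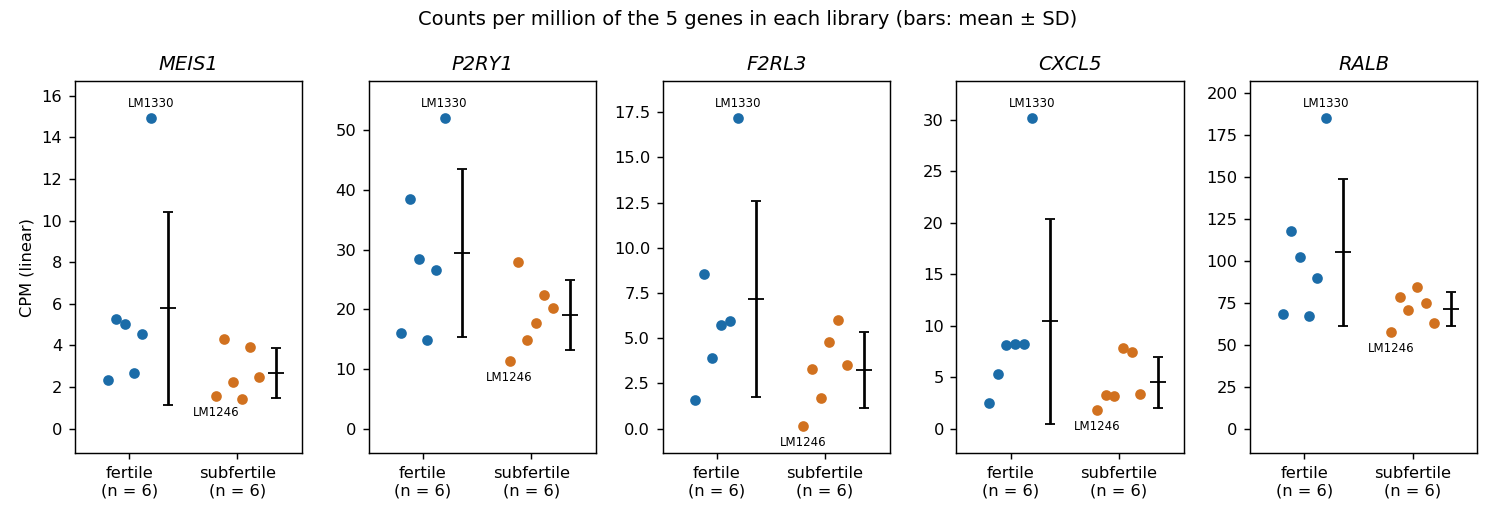
Level of each gene in CPM (linear axis) in the 6 fertile (blue) and 6 subfertile (orange) libraries, 1 point per heifer, with the group mean ± SD in black. LM1330 is the top point in all 5 panels, and LM1246 is the lowest point of P2RY1, F2RL3, CXCL5 and RALB.

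The order of the libraries was alike from gene to gene at its ends and less so in the middle. LM1330 ranked 1 of 12 for every gene. LM1246 ranked 12 for P2RY1, F2RL3, CXCL5 and RALB and 11 for MEIS1, where LM1265 was lowest. LM1247 ranked 2 for 4 of the genes but 7 for CXCL5. The fertile library LM1244 was low as well, at rank 9 for MEIS1, P2RY1 and RALB and 11 for F2RL3 and CXCL5, so that low values were found in both groups. LM1286 ranked 2 for CXCL5 but 11 for P2RY1 and 10 for RALB, and the subfertile LM1265 ranked 5 for CXCL5 and RALB but 12 for MEIS1.

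Between groups, all 5 genes had a lower mean in subfertile heifers, with log2FC (subfertile against fertile, ± SE, edgeR's quasi-likelihood test) of -1.12 ± 0.45 for MEIS1, -0.62 ± 0.30 for P2RY1, -1.15 ± 0.62 for F2RL3, -1.22 ± 0.52 for CXCL5 and -0.56 ± 0.22 for RALB. MEIS1, CXCL5 and RALB passed the study's thresholds of an unadjusted P of 0.05 or less and an absolute log2FC of 0.5 or more in the edgeR model, while P2RY1 and F2RL3 missed the threshold of P. DESeq2, the tool of the study, called all 5. Of all genes tested, 1.4% were called by edgeR, 0.738% as lower in subfertile heifers, and 1.77% were called by DESeq2, but since the genes were taken from such a list nothing is read from these counts. After Benjamini-Hochberg adjustment over all genes, P was 0.9998 for each of the 5 in edgeR. No gene reached an adjusted P of 0.05 in either tool, with 341 genes at an unadjusted P of 0.05 or less in edgeR and 417 in DESeq2.

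Which of the 5 genes were called depended on single heifers. Without LM1330, edgeR called none of the 5, and log2FC was -0.58 for MEIS1, -0.38 for P2RY1, -0.68 for F2RL3, -0.54 for CXCL5 and -0.32 for RALB. Without the low subfertile library LM1246 only RALB of the 5 remained called, with MEIS1 still at -1.01 and CXCL5 at -1.05. Without the low fertile library LM1244 all 5 were called. Of all genes tested, 118 were called without LM1330, 184 without LM1246 and 357 without LM1244, against 182 with all libraries. With each library dropped once, RALB was called in 11 of 12 fits. MEIS1 was called in 9, failing also without LM1265, and CXCL5 in 7, failing also without LM1251, LM1259 and LM1313. P2RY1 was called in 3, those without LM1244, LM1286 and LM1251, and F2RL3 in 1. In the two-sided exact permutation test over the 924 ways to assign 6 of 12 libraries, P for the mean log2 CPM was 0.0563 for MEIS1, 0.149 for P2RY1, 0.141 for F2RL3, 0.128 for CXCL5 and 0.0628 for RALB.

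Platelet content was read from markers outside the 5 genes. Of 20 platelet marker symbols, 10 could be tied to an identifier, and all 10 passed the filter, among them ITGA2B, ITGB3, GP5, GP9, TUBB1, SELP, GNG11, RAB27B and VWF. Their mean log2 CPM in a library is called the platelet level. The names come from the study's supplementary tables, which mostly list genes tightly co-expressed with the genes called or with regulators in 1 of the groups, so named genes are not a random draw. GNG11 was listed there with F2RL3, and none of the other 9 with any of the 5 genes. In whole-cell RNA of this kind, fewer platelets and less RNA per platelet cannot be told apart.

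The platelet markers varied widely between heifers. TUBB1, the platelet form of beta-tubulin, ran from 365 to 7705 CPM in fertile and from 350 to 2517 CPM in subfertile heifers. ITGB3, the beta subunit of the fibrinogen receptor, ran from 106 to 1930 CPM and from 118 to 519 CPM, and GP9, part of the receptor for von Willebrand factor, from 0.845 to 31.2 CPM and from 0.280 to 6.71 CPM. These ranges were wider than those of P2RY1 or RALB and overlapped between the groups. Summed over the 10 markers, of which TUBB1 gives most, the level was 743 to 12387 CPM in fertile heifers, with a median of 3163, and 740 to 4032 CPM in subfertile heifers, with a median of 2004. No marker was at 0 in any library. The sum was 16.7 times as high in LM1330 as in LM1246.

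All 10 markers had a log2FC below 0, from -1.87 for GP5 to -0.34 for ITGA2B with a median of -0.86, beside a median of 0.01 over all genes tested and 48.2% of them below 0. The markers could be named only through the study's lists made from these same libraries, and they are not independent of each other. Their shared direction is thus no independent evidence of lower platelet RNA. Without LM1330, 8 of the 10 were below 0, with a median of -0.31 and GP5 at -0.52, while ITGA2B (0.01) and VWF (0.22) turned positive. None of the 10 was called by edgeR, beside 1.4% of all genes tested (1.77% in DESeq2). DESeq2 called 2 of them lower, RAB27B, a GTPase of granule secretion, at -0.74, and GP5, part of the same receptor as GP9, at -1.87 (adjusted P = 0.9998 each), and both are also on the study's own list made from these libraries. The platelet level was 5.45 ± 1.21 in fertile and 4.83 ± 0.84 in subfertile heifers (mean log2 CPM ± SD, n = 6 each). That difference of -0.62 was within the spread between heifers (two-sided exact permutation test, P = 0.335). It was -0.23 without LM1330 and -0.36 without LM1246, the libraries with the highest and lowest level, and -0.97 without LM1244 (exact permutation P = 0.682, 0.589 and 0.126).

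**Figure D2:**
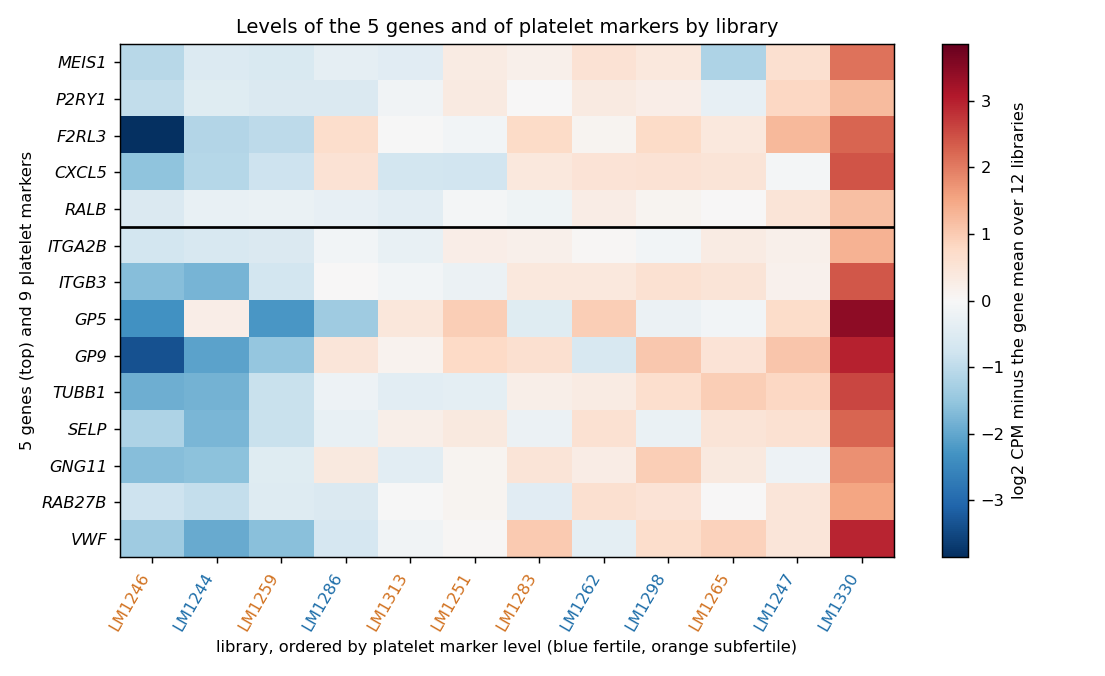
Log2 CPM of the 5 genes (top) and of 9 of the platelet markers (below the line), each minus its own mean over 12 libraries, with libraries ordered by platelet level from LM1246 (left) to LM1330 (right). Library names are blue for fertile and orange for subfertile heifers. Low values mostly gather at the left in LM1246, LM1244 and LM1259, and every gene is highest in LM1330. Exceptions include MEIS1, lowest in LM1265, and GP5, lower in LM1286 than in LM1244.

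Within groups the 5 genes followed the platelet level. The group means were removed from each gene and from the level, so that a difference between fertile and subfertile heifers could not produce a correlation, and P was obtained by permuting heifers within groups. Of 50 relations computed, 10 between the genes and 40 between a gene and a cell type level, 14 had a Benjamini-Hochberg adjusted P of 0.05 or less. All 5 relations with the platelet level were among them.

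CXCL5 had a Pearson r of 0.896 with the platelet level (permutation P = 0.00241, adjusted P = 0.0156) and a Spearman rho of 0.734 (permutation P = 0.0117, adjusted P = 0.0623). RALB had r = 0.874 (permutation P = 0.0008, adjusted P = 0.00800) and rho = 0.832 (permutation P = 0.00099, adjusted P = 0.0165). P2RY1 had r = 0.867 (permutation P = 0.00059, adjusted P = 0.00800) and rho = 0.783 (permutation P = 0.00516, adjusted P = 0.0487). In each of these genes the library with most platelet marker RNA also had most of the gene. F2RL3 had r = 0.863 (permutation P = 0.00028, adjusted P = 0.00800) and rho = 0.937 (permutation P = 0.00024, adjusted P = 0.00600). MEIS1 had the lowest, r = 0.787 (permutation P = 0.0108, adjusted P = 0.0412) and rho = 0.685 (permutation P = 0.0215, adjusted P = 0.0767).

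The relation with the platelet level did not rest on LM1330 in P2RY1, F2RL3, CXCL5 and RALB, where r without it was 0.799, 0.880, 0.810 and 0.760 (permutation adjusted P = 0.0426, 0.0426, 0.0426 and 0.0495). In MEIS1 r fell to 0.598 without it, with an adjusted P of 0.266 by permutation, and without the subfertile LM1265, in which MEIS1 was low at a high platelet level, it was 0.954. With the 2 heifers farthest from the median of the gene left out, r was 0.870 in P2RY1, 0.872 in F2RL3, 0.836 in RALB and 0.705 in CXCL5 (permutation P = 0.00500, 0.00782, 0.00908 and 0.0877). For MEIS1 it was 0.473 (permutation P = 0.234), so that its relation rested on those heifers, LM1244 and LM1330. Over the fertile heifers alone r was 0.886 to 0.966 for the 5 genes. Over the subfertile heifers alone it was 0.401 for MEIS1 (exact permutation P = 0.414) and 0.796 to 0.922 for the other four.

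The 5 genes did not change by the same amount for a given change of the platelet level. Per unit of log2 platelet level, F2RL3 rose by 1.19 log2 units (0.89 to 1.49 when any 1 library was dropped), CXCL5 by 0.85 (0.75 to 0.89), MEIS1 by 0.60 (0.43 to 0.71), P2RY1 by 0.49 (0.46 to 0.53) and RALB by 0.35 (0.26 to 0.37). The platelet markers themselves, each against the mean of the other 9, ranged from 0.49 for ITGA2B to 1.54 for GP9. The slopes of MEIS1, P2RY1, F2RL3 and CXCL5 were thus inside the range of the markers, and that of RALB was below it. The share of the within-group variance in common with the level was 61.9% for MEIS1 and 74.5% to 80.2% for the other four, beside 52.3% to 92.8% for the markers.

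**Figure D3:**
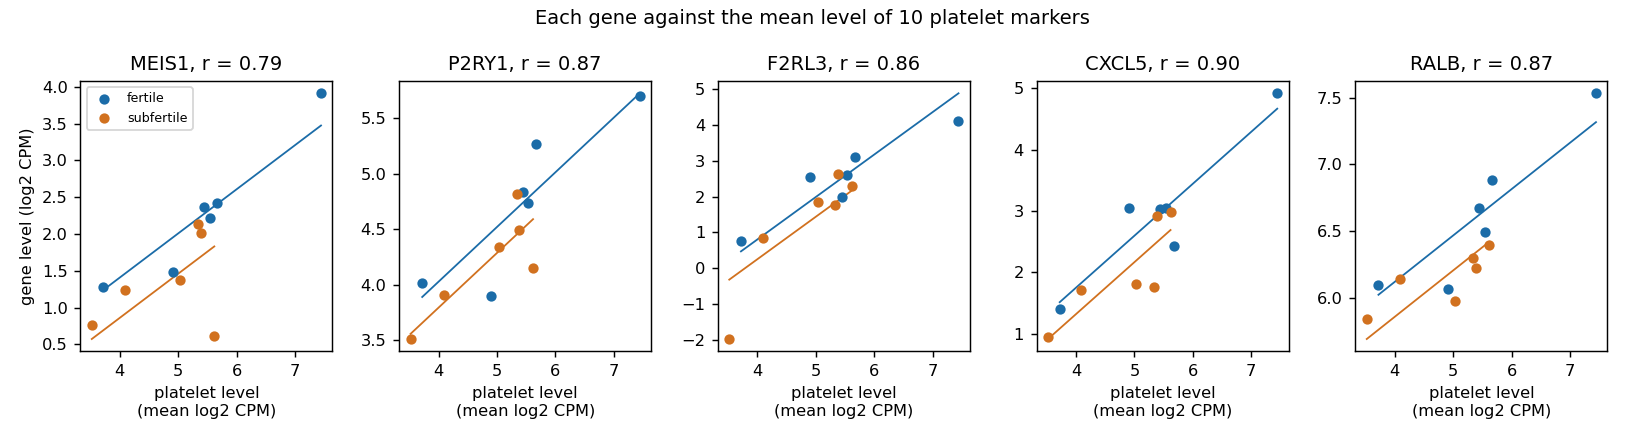
Log2 CPM of each gene (vertical axis) against the platelet level, the mean log2 CPM of 10 platelet markers (horizontal axis), in fertile (blue) and subfertile (orange) libraries. Lines have the slope common to both groups, and r is the group-centred Pearson correlation, from 0.79 in MEIS1 to 0.90 in CXCL5. The point at the right of each panel is LM1330.

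Correlations with the single markers were then counted, beside those with all genes. CXCL5, P2RY1 and RALB each had r of 0.7 or more with 9 of the 10 markers, F2RL3 with 8 and MEIS1 with 7. The share of all other tested genes with such an r was 9.85% for CXCL5, 3.72% for P2RY1, 3.87% for RALB, 11.7% for F2RL3 and 2.43% for MEIS1, and of named genes 18.9%, 9.09%, 10.2%, 19.9% and 6.81%. The closest marker was ITGB3 for CXCL5 (r = 0.959), GP9 for F2RL3 (r = 0.947) and RAB27B for P2RY1, RALB and MEIS1 (r = 0.888, 0.895 and 0.796). Without LM1330 the number of markers with r of 0.7 or more was 8 for F2RL3, 7 for P2RY1 and CXCL5, 5 for RALB and 0 for MEIS1, and the share of all other genes was 3.20% for P2RY1, 13.5% for CXCL5, 3.16% for RALB and 2.07% for MEIS1, with 1686 of 13011 genes for F2RL3. These are descriptions over 12 or 11 libraries, in which the markers are not independent of each other.

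The 5 genes also correlated with each other, with a positive group-centred r in all 10 pairs, from 0.605 to 0.898 with a median of 0.737. MEIS1 and P2RY1 had r = 0.898 (permutation P = 0.00047, adjusted P = 0.00800; rho = 0.958, permutation P = 0.00015, adjusted P = 0.00600). P2RY1 and RALB had r = 0.883 (permutation P = 0.00076, adjusted P = 0.00800; rho = 0.818, permutation P = 0.00584, adjusted P = 0.0487). These were the pairs past the threshold by both measures. F2RL3 and CXCL5 had r = 0.787 (permutation P = 0.00145, adjusted P = 0.0121), but rho = 0.727 had an adjusted P of 0.0623 (permutation P = 0.0115). MEIS1 with RALB (r = 0.814), P2RY1 with F2RL3 (r = 0.728) and F2RL3 with RALB (r = 0.643) passed by r alone, with permutation adjusted P of 0.0247, 0.0234 and 0.0247.

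The 4 pairs that did not pass were CXCL5 with P2RY1 (r = 0.605), MEIS1 (r = 0.634) and RALB (r = 0.747), and MEIS1 with F2RL3 (r = 0.607), with adjusted P of 0.144, 0.144, 0.0531 and 0.0766 by permutation. Without LM1330 all 10 pairs still had a positive r, from 0.288 to 0.856 with a median of 0.590, and 3 had an adjusted P of 0.05 or less: MEIS1 with P2RY1 (r = 0.856), P2RY1 with RALB (r = 0.847) and F2RL3 with CXCL5 (r = 0.777), each at 0.0426 by permutation. Without the 2 heifers farthest from the median of the first gene of a pair, r ran from 0.0526, for MEIS1 with CXCL5, to 0.829, for MEIS1 with P2RY1. Within the fertile group r was 0.664 to 0.983 and within the subfertile group 0.143 to 0.839, all positive over 6 heifers each.

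Once the platelet level was removed from both genes of a pair by regression, a step chosen after the data had been seen, the median r of the 10 pairs was -0.12 and 4 of them were positive. MEIS1 and P2RY1 had r = 0.701, P2RY1 and RALB 0.516 and MEIS1 and RALB 0.420, while P2RY1 and CXCL5 had r = -0.777 and F2RL3 and CXCL5 0.0633. No pair had an adjusted P of 0.05 or less over these 10, the lowest being 0.0579 by permutation for MEIS1 with P2RY1 and for P2RY1 with CXCL5. With the platelet level as a term in the edgeR model, log2FC between groups was -0.46 for MEIS1, -0.24 for P2RY1, -0.48 for F2RL3, -0.43 for CXCL5 and -0.27 for RALB, and none was called. RALB stayed at an unadjusted P under 0.05 there and missed the threshold of size, while the other four missed both. All 5 kept the negative sign, at 35.3% to 47.9% of the size without that term.

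**Figure D4:**
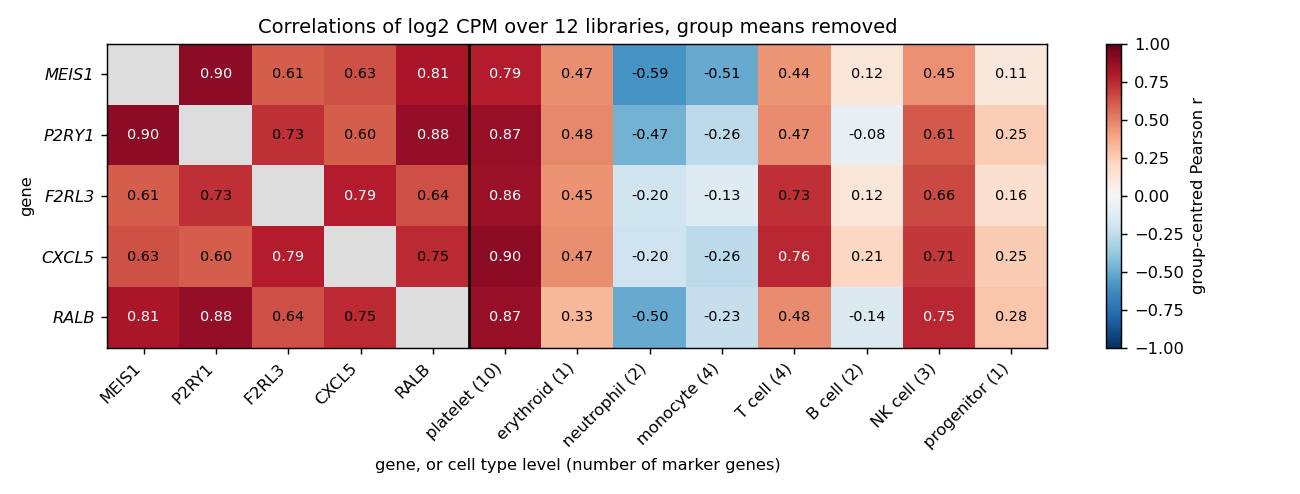
Group-centred Pearson r over 12 libraries between the 5 genes (left of the line) and between each gene and the level of 8 cell types (right of the line, with the number of marker genes behind each level). The platelet column holds 0.79 to 0.90. Among the other 7 levels drawn, which do not include CCR3, the highest values are 0.76 for CXCL5 with the T cell level and 0.75 for RALB with the NK cell level.

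Other cell types were compared in the same way. F2RL3 had r = 0.727 with the T cell level (permutation P = 0.00250, adjusted P = 0.0156; rho = 0.790, permutation P = 0.00342, adjusted P = 0.0427). CXCL5 had r = 0.755 with the T cell level (permutation P = 0.00939, adjusted P = 0.0391; rho = 0.741, permutation P = 0.0125, adjusted P = 0.0623). RALB had r = 0.755 with the NK cell level of PRF1, EOMES and TBX21 (permutation P = 0.0115, adjusted P = 0.0412; rho = 0.615, permutation P = 0.0551, adjusted P = 0.162). Without LM1330 these 3 relations had r = 0.670, 0.609 and 0.547, at an adjusted P of 0.0909, 0.262 and 0.335 by permutation. The platelet level itself had r = 0.766 with the T cell level and 0.791 with the NK cell level, so that the genes' relations with these cells and with platelets were not separate. In their sums the T cell markers ran from 694 to 1271 CPM in fertile and 603 to 1017 CPM in subfertile heifers, and the NK cell markers from 250.9 to 407 and 250.5 to 339 CPM.

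CCR3, the one named gene of the eosinophil and basophil list and not among the 8 levels, was added after its values were seen. Its group-centred r was 0.948 with the platelet level and 0.857 with MEIS1, 0.861 with P2RY1, 0.804 with F2RL3, 0.874 with CXCL5 and 0.899 with RALB. Without LM1330 these were 0.907, 0.69998, 0.799, 0.835, 0.750 and 0.771. For MEIS1 and RALB, r with CCR3 was thus above their r with the platelet level, and eosinophil, basophil and platelet RNA cannot be told apart by these correlations. The log2FC of CCR3 was -1.09 ± 0.55 (edgeR, not called), and -0.20 without LM1330.

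The remaining levels had no relation past the threshold with any of the 5 genes. Against neutrophil and monocyte levels r was negative for all 5, from -0.592 to -0.131, and for each of these levels at least 3 of the 5 turned positive without LM1330. Against B cell levels r ran from -0.142 to 0.206, and against the progenitor marker KIT it was at most 0.278. The erythroid level, which rested on EPB42 alone of 12 symbols, a gene also called lower by edgeR (log2FC -0.96), had r of 0.333 to 0.482 with the 5 genes. It was lower in subfertile heifers by 0.95 log2 units, at an exact permutation P of 0.0368 and 0.199 after adjustment over the 8 levels. The B cell level was lower by 0.37 (exact permutation P = 0.0498, adjusted P = 0.199), and of its 2 markers PAX5, a B cell transcription factor, was called lower by edgeR. Without LM1330 neither EPB42 (log2FC -0.75) nor PAX5 (log2FC -0.50) was called. The 5 genes were also low where the TMM scaling factor was high, with r of -0.691 to -0.481, and the platelet level had r = -0.712 with that factor. The part of the factor in these relations was not tested beyond scaling by library size alone, under which the median r with the platelet level was 0.830 in place of 0.867 and that of the pairs 0.664 in place of 0.737. Under that scaling MEIS1 no longer passed the threshold with the platelet level (r = 0.748, permutation adjusted P = 0.102) or with RALB (r = 0.784, P = 0.0728). Nor did P2RY1 with F2RL3 (r = 0.664, P = 0.0716) and F2RL3 with RALB (r = 0.519, P = 0.119), both also adjusted and by permutation.

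The other genes of the pathways were looked at by fixed lists. Of the receptors for platelet agonists, P2RX1, an ATP-gated channel of platelets, had a log2FC of -0.96 ± 0.66 (edgeR; exact permutation P = 0.307) and -0.05 without LM1330. F2RL2, a further thrombin receptor, had 0.41 ± 0.45 (edgeR). Of the 10 named genes from these receptors to Rap1 and the integrin none was called in either direction, and the median log2FC was -0.08. With all libraries ITGB3 had the largest change there, at -0.95 ± 0.53 (edgeR; exact permutation P = 0.372), but it was at -0.21 without LM1330. PRKCA, a protein kinase C, was at -0.34 ± 0.14 (edgeR; exact permutation P = 0.0216), below the threshold of size, and at -0.36 without LM1330, then the largest of the 10. RASGRP2, the exchange factor that activates Rap1 in platelets, had -0.02 ± 0.11, from 568 to 767 CPM in fertile and 533 to 817 CPM in subfertile heifers, a level about even between the groups. Its highest level was 1.53 times its lowest, beside 16.7 times for the summed platelet markers. Which cells its RNA came from was not tested.

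Of the Ral module EXOC8, a subunit of the exocyst on which Ral acts, had -0.12 ± 0.21 (edgeR; exact permutation P = 0.478) and RALGAPB, of the complex that switches Ral off, -0.09 ± 0.21 (exact permutation P = 0.669). Of the CXC chemokines and receptors none of 4 was called: CXCL10 had 0.56 ± 0.36 (edgeR; exact permutation P = 0.251) and CXCL8, which like CXCL5 attracts neutrophils, -0.28 ± 0.51 (exact permutation P = 0.840), which turned to 0.10 without LM1330. Of the partners of MEIS1 and the megakaryocyte factors, TAL1, a transcription factor of megakaryocytes and red cell precursors, was called lower, at 168 ± 98.3 CPM in fertile and 95.1 ± 43.5 CPM in subfertile heifers (SD, n = 6 each; log2FC -0.82 ± 0.36, adjusted P = 0.9998, edgeR; exact permutation P = 0.0996). TAL1 was no longer called without LM1330 (log2FC -0.47) or with the platelet level in the model (log2FC -0.36), and it was called in 4 of the 12 fits with a library dropped, those without LM1244, LM1286, LM1298 and LM1265. It was the one gene called among the 20 named genes of these lists outside the 5, beside the 1.4% of all genes.

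**Figure D5:**
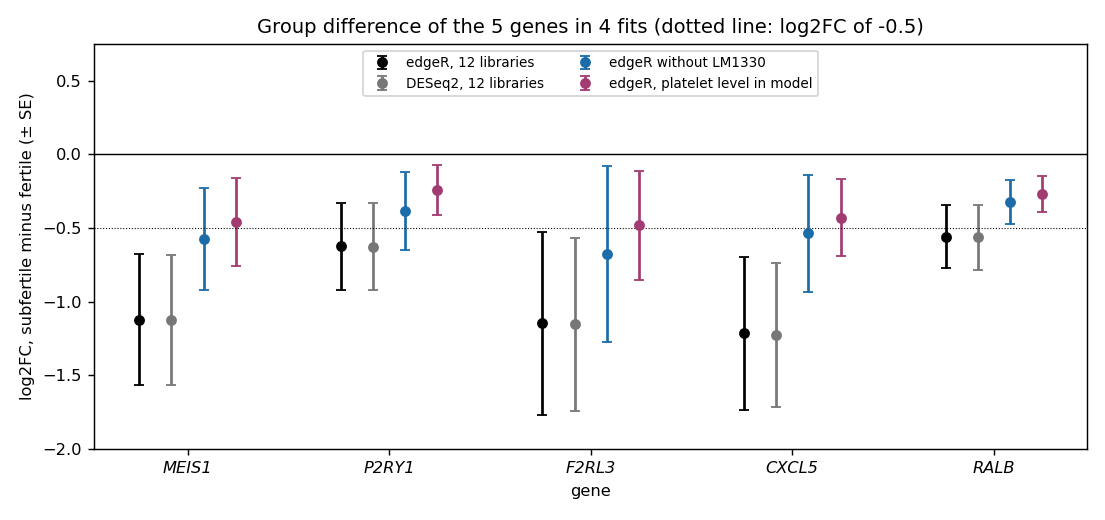
Log2FC (subfertile minus fertile, ± SE) of the 5 genes from edgeR and DESeq2 on 12 libraries, from edgeR without LM1330 and from edgeR with the platelet level in the model. The estimates are negative in all 4 fits and lie nearer to 0 without LM1330 and with the platelet level, where MEIS1 is at -0.58 and -0.46.

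The named genes most like each of the 5 were ranked by group-centred r over the 12 libraries. For MEIS1 they were ATP6V1H (r = 0.954), SRD5A1 (0.948), GUCY1A1 (0.925), DHRS7 (0.906) and P2RY1 (0.898). These were also the 5 closest of all 13011 other genes tested, and none of the 10 platelet markers was among them. For P2RY1 they were DYRK3 (r = 0.940), CNBP (0.929), TMCC2 (0.927), DHRS7 (0.926) and CCNI (0.915), the last of which is listed with P2RY1 in the source of the names. For F2RL3 they were RAMP3 (r = 0.963), ABHD16A (0.952), the platelet glycoprotein gene GP9 (0.947), GIPC1 (0.946) and DYNLRB1 (0.938), of which ABHD16A and GIPC1 are listed with F2RL3.

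For CXCL5 the closest named genes included CAPNS1 (r = 0.978), STMP1 (0.972), COTL1 (0.962) and MAF1 (0.959). For RALB they were MBD2 (r = 0.943), EGLN3 (0.937), ENDOD1 (0.936), DYRK3 (0.935) and ARHGAP6 (0.931). GP9 was the one platelet marker among these genes. DHRS7 stood in those of MEIS1 and P2RY1 and DYRK3 in those of P2RY1 and RALB, while the lists of F2RL3 and CXCL5 shared no gene with the others. Without LM1330 the r of all these genes stayed between 0.798 and 0.959.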

How the data were processed

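PWBC RNA was extracted together for all heifers and made into directional poly(A) libraries, which shared 1 sequencing run. The authors mapped the reads with STAR 2.7.5 to ARS-UCD1.3 and deposited raw counts per Ensembl gene, neither normalized nor filtered. Quality control was run with FastQC 0.11.9 and MultiQC 1.12, per the submitters' processing notes. The strand column counted is not stated, and the deposited counts pair no gene with its name.

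Genes were kept with filterByExpr (minimum count 10, 70%), TMM-normalized and tested with edgeR 4.0.16 in R 4.3.3, with the fertility group as the term. Genes were called at an unadjusted P of 0.05 or less and an absolute log2FC of 0.5 or more, with Benjamini-Hochberg adjustment over all 13012 genes. DESeq2 1.42.0 and voom (limma 3.58.1) were alternatives. CPM used TMM-scaled library sizes, and log2 CPM a prior count of 2.

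Correlations used 100000 permutations within groups (smallest P 1e-05; Python 3.11.15, numpy 2.4.6); within-group values over 6 heifers were exact. Both methods were run on simulated data simpler than these libraries. The simulated group changes were larger than those of the 5 genes, at less spread than estimated here. The simulated correlations held no extreme library. These runs do not show how the methods behave on the present values. The 5 genes, marker and pathway lists were chosen with earlier results of these data known. Symbols came from the study's supplementary tables, which gave 2896 usable names. The genes named are the 5, the platelet markers, in each pathway list those called or else the largest 2 changes with a mean of at least 5 CPM, and the 5 named genes closest to each of the 5; F2RL2, RASGRP2, CCR3, PAX5 and the other cell markers named were added after their values were seen. A planned promoter motif search was not run, since no sequence of these genes was used here. The platelet level is the mean over all 10 markers; 1 of them and 1 of the genes closest to CXCL5 are not reported here by name. Lane, age and weight were not used.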

Additional observations from a re-analysis of the deposited data

Results flagged for a closer look

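LM1330 lay farther from the other 5 fertile heifers than Dixon's 95% limit for 6 samples in 3 of 12 sets of values examined in that group. Chance flags about 1 in 20 sets, but these sets are correlated, so the number of them is no evidence of its own. MEIS1 was at 14.9 CPM in LM1330, a gap of 0.767 of the group's whole range. CXCL5 was at 30.2 CPM, a gap of 0.795 of the range. The 10 platelet markers summed to 12387 CPM in it, a gap of 0.732 of the range. On the log2 scale none of these passed the limit.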

How the results depend on the processing

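Of the 5 genes, 5 were called with DESeq2, 0 with voom, 0 with the platelet level in the model and 0 to 5 when a library was left out, against 3 in edgeR. Of all genes tested, these fits called 230, 143, 125 and 118 to 357, against 182 in edgeR. Log2FC of the 5 genes stayed negative throughout. It was -0.92 (voom), -0.46 (platelet level) and -1.31 to -0.58 (a library left out) for MEIS1, and -1.02, -0.43 and -1.44 to -0.54 for CXCL5. For RALB it was -0.48, -0.27 and -0.66 to -0.32. P2RY1 was called with DESeq2 (-0.63), library size alone (-0.61) and all genes with a count (-0.62), at -0.77 to -0.38 with a library left out, and F2RL3 with DESeq2 (-1.16), at -1.43 to -0.68. With 10 counts in every library F2RL3 was not tested. The median r of the pairs was 0.899 on the CPM scale, 0.598 without the 2 farthest heifers, 0.590 to 0.786 with a library left out and -0.124 without the platelet level, where r turned negative in MEIS1 with F2RL3 (-0.232) and CXCL5 (-0.258), P2RY1 with F2RL3 (-0.0834) and CXCL5 (-0.777), and RALB with F2RL3 (-0.451) and CXCL5 (-0.165). The median r with the platelet level stayed at 0.783 to 0.936 under the other scales and at 0.799 to 0.906 with a library left out; for MEIS1 the adjusted P kept its side of 0.05 in 4 of 18 alternatives. The difference in platelet level stayed negative, at -0.97 to -0.23 with a library left out. Of the pathway genes 0 to 2 were called with a library left out. The cause of these changes was not tested. No paired analysis was made, since each library came from a different heifer and no pairing of heifers is given. Depth limits the values with few reads, and the lowest count among the 5 genes was 3, for F2RL3 in LM1246.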
